A study of Homo sapiens with 4 samples.

Results

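The HSP90 chaperones and their closest partners make up 10 genes of the 25737 listed and were taken as a list of names for their role, with earlier results of these data known. They are the cytosolic paralogs HSP90AA1 and HSP90AB1, the endoplasmic reticulum paralog HSP90B1, the mitochondrial paralog TRAP1, the cochaperones AHSA1, STIP1, CDC37, PTGES3 and FKBP4, and the transcription factor HSF1. A test was possible for 7 members, among the 4517 genes with enough reads, and 3 (TRAP1, CDC37 and HSF1) had under 20 reads in all 4 libraries together. The libraries came from cells labelled SKOV-3, an established line of human ovarian cancer. In 2 of them the cells had been given 40 µM rosmarinic acid methyl ester (RAME), derived from a phenolic compound of rosemary, for 24 h, and in the other 2 they had been given DMSO. A single line, dose and time were measured, by 3′ RNA sequencing, in which a longer transcript is not meant to give more reads. Levels are given as CPM, reads brought to a common library total with TMM factors, with no correction for length. How fully each gene was counted was not tested, so values of different genes compare reads and not transcripts.

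HSP90 is an ATP-driven dimer that acts late in folding, after HSP70, on client proteins such as kinases and steroid receptors. Cochaperones bring clients in, change the speed of the ATP cycle or hold its closed state. HSF1 drives the heat shock genes, HSP90AA1 among them, and is itself held in check by HSP90, while HSP90B1 belongs to the genes induced when unfolded proteins collect in the endoplasmic reticulum.

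The RAME libraries held 1441575 and 1777782 assigned reads, and the DMSO libraries held 2306379 and 2543566. Within each group the replicates departed from one another beyond counting noise (chi-square divided by its degrees of freedom, 18.5 for RAME and 33.6 for DMSO). Whether replicates were separate cultures is not stated in the sources, so the p-values reflect only the spread among these samples, and that spread may be technical. The labelled cell type was poorly borne out by its markers. Of 14 markers of SKOV-3 or epithelial cells, 13 had under 20 reads in all and 5 were at 0. ERBB2, which this line is known to carry in many copies, had 0 reads in all 4 libraries. Of 20 markers of other cell types, 16 had under 20 reads in all and 8 were at 0, and their summed level was 115 and 57.8 CPM with RAME and 95.9 and 41.4 CPM with DMSO. The part of cell identity in the results below was not tested, and in bulk RNA fewer cells of a type and less RNA per cell cannot be told apart.

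Promoter windows of HSP90AA1, HSP90AB1, HSP90B1 and STIP1 held letters of the elements bound by stress factors. Those of TRAP1, AHSA1, CDC37 and PTGES3 held none. FKBP4 had no RefSeq promoter window, and HSF1 was left out. For the other 8 members, 13 RefSeq windows of build GRCh38.p14 were used, each running 250 bases before to 50 after an annotated start. They were searched on both strands for the 2-unit form of the heat shock element (GAANNTTC or TTCNNGAA), for its 3-unit form, in which a further spaced unit follows in the same alternation, so that every 3-unit match contains the 2-unit form, and for the ER stress element (CCAAT, any 9 bases, then CCACG). The 4 sequences printed are the windows that hold a 3-unit or ER match, and that of PTGES3 for contrast, up to the base before the start, 5′ to 3′ on the gene's strand, with those matches in capitals. They lie at chr14:102087045-102087294 on the minus strand (HSP90AA1), chr6:44247693-44247942 on the plus strand (HSP90AB1), chr12:103930160-103930409 on the plus strand (HSP90B1) and chr12:56688285-56688534 on the minus strand (PTGES3).
HSP90AA1: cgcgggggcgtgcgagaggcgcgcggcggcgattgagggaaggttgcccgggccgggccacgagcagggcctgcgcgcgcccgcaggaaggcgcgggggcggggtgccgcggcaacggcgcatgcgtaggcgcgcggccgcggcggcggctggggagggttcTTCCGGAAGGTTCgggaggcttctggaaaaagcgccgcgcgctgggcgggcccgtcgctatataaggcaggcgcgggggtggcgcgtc
HSP90AB1: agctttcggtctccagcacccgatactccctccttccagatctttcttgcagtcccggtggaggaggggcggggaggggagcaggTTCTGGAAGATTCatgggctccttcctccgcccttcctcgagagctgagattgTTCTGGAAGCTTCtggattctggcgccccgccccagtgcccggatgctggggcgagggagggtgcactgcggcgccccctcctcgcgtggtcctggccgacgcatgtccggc
HSP90B1: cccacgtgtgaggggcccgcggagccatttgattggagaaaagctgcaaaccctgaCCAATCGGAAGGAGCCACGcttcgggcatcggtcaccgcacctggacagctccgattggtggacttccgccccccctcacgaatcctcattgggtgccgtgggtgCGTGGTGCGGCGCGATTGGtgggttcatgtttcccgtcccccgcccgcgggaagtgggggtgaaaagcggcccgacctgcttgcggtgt
PTGES3: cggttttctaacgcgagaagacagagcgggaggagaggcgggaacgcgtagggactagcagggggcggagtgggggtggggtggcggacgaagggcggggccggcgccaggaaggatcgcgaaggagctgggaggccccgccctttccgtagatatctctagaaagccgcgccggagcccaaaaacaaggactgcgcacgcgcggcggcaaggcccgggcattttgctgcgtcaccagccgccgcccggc

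A 3-unit heat shock element stood at −88 to −76 in HSP90AA1, in 1 of its 2 windows, with a 2-unit match of its own at −68 to −61. HSP90AB1 held 3-unit elements at −165 to −153 and at −112 to −100, in 1 of its 3 windows. HSP90B1 held ER stress elements at −194 to −176 and, on the opposite strand, at −89 to −71. Among all 35116 windows, 0.49% held a 3-unit heat shock element, 13.5% a 2-unit form and 0.0769% an ER stress element. STIP1 had a single 2-unit match at 14 to 21, after its start, and TRAP1, AHSA1, CDC37 and PTGES3 had no match of these letters. Matches did not go with calls in every member. In the test below, AHSA1, without a match, was called higher, and HSP90AB1, with 3-unit elements, was not called. A match is a description of the letters in the window, and binding was not measured.

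**Figure D1:**
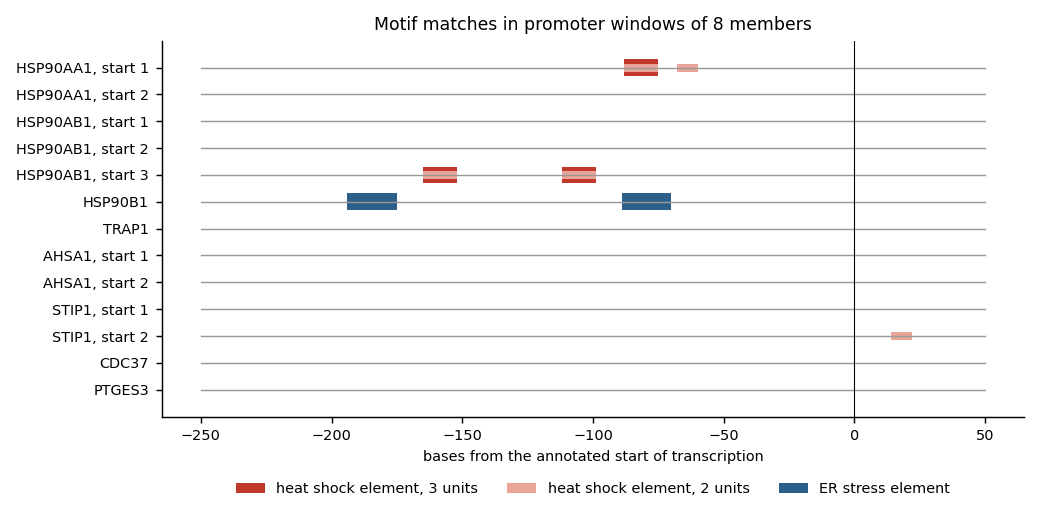
Matches to the 3 motifs in the 13 promoter windows of 8 members, plotted by distance in bases from the annotated start of transcription (horizontal axis), 1 line per window. Heat shock elements of 3 units lie in HSP90AA1 and HSP90AB1 only and ER stress elements in HSP90B1 only, among these windows.

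Of the 7 members tested, 5 rose with RAME (HSP90AA1, HSP90B1, AHSA1, STIP1 and FKBP4), 0 fell and 2 were not called (HSP90AB1 and PTGES3) at an adjusted p under 0.05 from edgeR. Of all 4517 genes tested, 13.5% were called, 6.46% higher and 7.08% lower. At an unadjusted p under 0.05, 6 members were higher and 0 were lower, and the share of all genes at that threshold is not given. DESeq2 called 6 members higher and 0 lower, where it called 280 higher and 383 lower among all 4517 genes. The median log2 fold change of the 7 members was 1.49, against 0.01 over all genes tested. In 6 of the 7, both RAME libraries lay above both DMSO libraries, and in 0 both lay below, against 31.1% and 29.5% of all genes tested. With 2 libraries per group the smallest two-sided p of an exact permutation test is 0.333, and the calls therefore come from edgeR, whose estimate of spread is shared across genes. With limma on the authors' normalized log2 values, none of the 7 members passed, with adjusted p of 0.0526 for FKBP4 to 0.0789 for STIP1 among the 5 called by edgeR, and 131 genes passed in all.

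**Figure D2:**
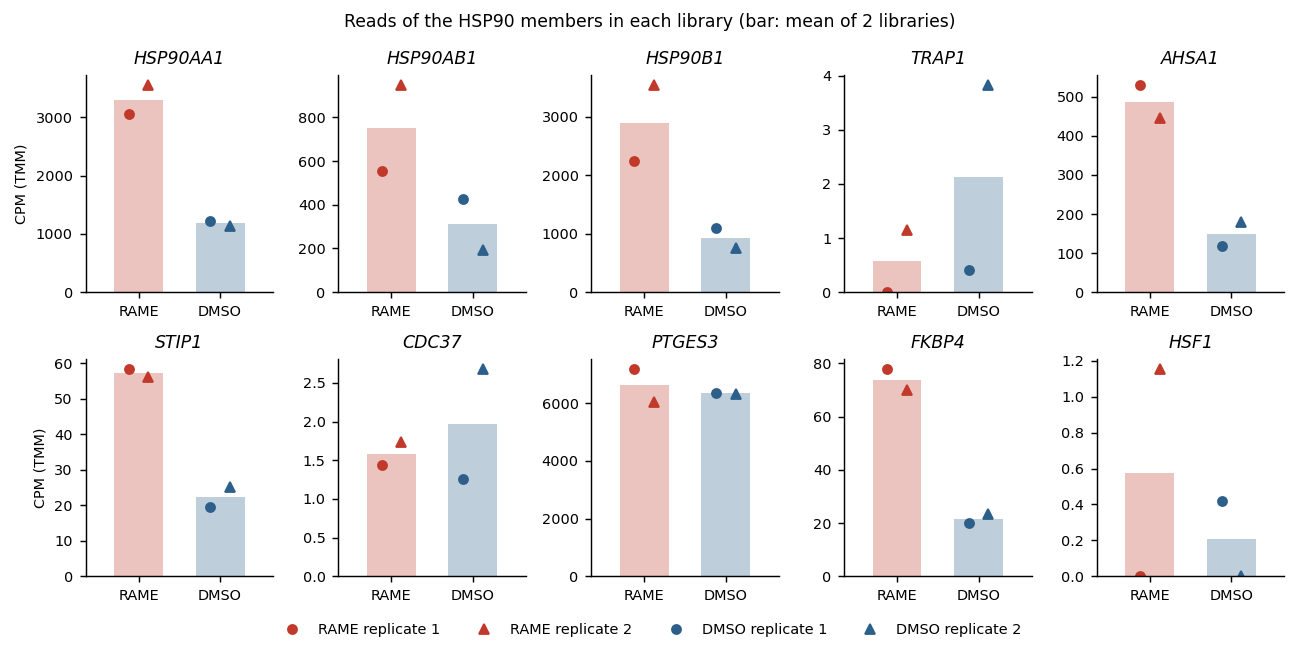
CPM (TMM-scaled, vertical axes from 0, a separate scale per gene) of the 10 members in each RAME library (red, left) and DMSO library (blue, right), with bars at the mean of 2 libraries. HSP90AA1, HSP90B1, AHSA1, STIP1 and FKBP4 stand apart between groups, PTGES3 lies at 6045 to 7191 CPM in all 4 libraries, and TRAP1, CDC37 and HSF1 are under 4 CPM throughout.

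The cytosolic paralogs were both more abundant in the RAME libraries, and only the stress-inducible one passed the test. HSP90AA1, the inducible form of cytosolic HSP90, had 4240 and 6161 reads with RAME and 2926 and 2977 reads with DMSO, or 3057 and 3559 CPM against 1220 and 1140 CPM. Every RAME library lay above every DMSO library, and the libraries of a group were close to each other. HSP90AA1 averaged 3308 ± 355 CPM with RAME and 1180 ± 56.8 CPM with DMSO (SD, n = 2 each). The log2 fold change was 1.49 ± 0.26 (SE), or 2.81-fold higher, at an edgeR adjusted p of 0.00683. Its call held when each library was left out in turn, and over 16 other settings its log2 fold change ran from 1.38 to 1.60.

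HSP90AB1, the constitutive form, had 772 and 1642 reads with RAME and 1025 and 507 reads with DMSO, or 557 and 948 CPM against 428 and 194 CPM. The groups did not overlap on the CPM scale, but RAME replicate 2 had 1.70 times the CPM of RAME replicate 1 and DMSO replicate 1 had 2.20 times that of DMSO replicate 2. The mean was 752 ± 277 CPM with RAME and 311 ± 165 CPM with DMSO (SD, n = 2 each). The log2 fold change was 1.28 ± 0.40 (SE), with an interval at 95% of 0.38 to 2.17, and edgeR gave an adjusted p of 0.0585. The call depended on single libraries. Without DMSO replicate 1 the edgeR log2 fold change was 1.96 (adjusted p = 0.00294) and without RAME replicate 1 it was 1.61 (adjusted p = 0.00341). Without DMSO replicate 2 it was 0.82 (adjusted p = 0.172) and without RAME replicate 2 it was 0.84 (adjusted p = 0.181). HSP90AB1 passed in 7 of the 16 other settings, among them DESeq2, with an adjusted p of 0.0288. The 7 include a pairing of libraries with unlike replicate numbers (the crossed pairing), chosen after the data were seen.

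The balance of the cytosolic forms was not resolved. Within a library, where no scaling enters, there were 5.49 and 3.75 HSP90AA1 reads per HSP90AB1 read with RAME and 2.85 and 5.87 with DMSO. The RAME values lay within the range of the DMSO values, and the exact permutation p of the log2 ratio, a difference of 0.15, was 1. Without DMSO replicate 1 that difference turned to −0.37 and without RAME replicate 1 to −0.13. The inducible form had more reads than the constitutive one in all 4 libraries. Together they took 0.348% and 0.439% of the reads with RAME and 0.171% and 0.137% with DMSO.

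HSP90B1, known as GRP94, folds secreted and membrane proteins in the endoplasmic reticulum. It had 3104 and 6144 reads with RAME and 2635 and 1979 reads with DMSO, or 2238 and 3549 CPM against 1099 and 758 CPM. The groups did not overlap, and RAME replicate 2 was the highest library. HSP90B1 averaged 2893 ± 927 CPM with RAME and 928 ± 241 CPM with DMSO (SD, n = 2 each), 3.12-fold higher. The edgeR log2 fold change was 1.64 ± 0.31 (SE), with an adjusted p of 0.0104, and it passed with each library left out, at log2 fold changes of 1.27 to 1.94. Per read of cytosolic HSP90 there were 0.619 and 0.787 HSP90B1 reads with RAME and 0.667 and 0.568 with DMSO, so the groups overlapped (exact permutation p = 0.667). The difference between group means of this ratio was 0.18 on the log2 scale.

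TRAP1, the mitochondrial paralog, was barely detected, with 0 and 2 reads with RAME and 1 and 10 reads with DMSO. Most of its reads were in DMSO replicate 2. Over the groups this was 0.641 CPM with RAME and 2.20 CPM with DMSO, a ratio of 0.292 with a counting interval at 95% of 0.0315 to 1.34. A difference was not detectable at this depth, and such intervals cover counting error only. In all, the HSP90 paralogs took 0.563% and 0.785% of the reads with RAME and 0.286% and 0.215% with DMSO.

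Reads of the members may be shared with processed copies. In GENCODE, 4 pseudogenes are named for HSP90AA1, 5 for HSP90AB1, 2 for HSP90B1, 5 each for PTGES3 and FKBP4, 2 for CDC37 and 1 for STIP1, so reads of these genes may include theirs. Among them, HSP90AB4P and HSP90B2P had their own reads in the table. Whether reads of HSP90AB1 and HSP90B1 were split with them was not tested. The aligned stretch ended 1325 bases before the 3′ end of the HSP90AB1 transcript for HSP90AB4P. For HSP90B2P it ended 269 bases before that of HSP90B1. HSP90B2P, 93.4% identical to the HSP90B1 transcript over 2417 bases, had 310 and 309 reads with RAME and 75 and 95 reads with DMSO. That was 9.99% and 5.03% of the HSP90B1 reads with RAME and 2.85% and 4.80% with DMSO, and the edgeR log2 fold change was 2.57 ± 0.33 (SE, adjusted p = 0.00151). HSP90AB4P, 88.9% identical to HSP90AB1 over 1063 bases, had 30 and 27 reads with RAME and 3 and 9 with DMSO (edgeR log2 fold change 2.94 ± 0.68 SE, adjusted p = 0.0185). Its call was lost without DMSO replicate 1, at an adjusted p of 0.0504. Adding the pseudogene reads to their parents left HSP90B1 at an edgeR log2 fold change of 1.69 (adjusted p = 0.00898) and HSP90AB1 at 1.30 (adjusted p = 0.0541). HSP90AA1 and HSP90AB1 transcripts were 75.9% identical over 2167 bases.

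Among the cochaperones, AHSA1, STIP1 and FKBP4 rose, and PTGES3, with by far the most reads, did not pass the test. AHSA1, the activator of the HSP90 ATPase, had 736 and 771 reads with RAME and 283 and 472 with DMSO, or 531 and 445 CPM against 118 and 181 CPM. Both RAME libraries held more than 2 times the CPM of either DMSO library. Its mean was 488 ± 60.3 CPM with RAME and 149 ± 44.3 CPM with DMSO (SD, n = 2 each), 3.27-fold higher. The edgeR log2 fold change was 1.71 ± 0.32 (SE), with an adjusted p of 0.0102, and it passed with each library left out, at 1.44 to 2.05.

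FKBP4, known as FKBP52, is an immunophilin that works with HSP90 on steroid receptors. It had 108 and 121 reads with RAME and 48 and 61 with DMSO, or 77.9 and 69.9 CPM against 20.02 and 23.4 CPM. The groups did not overlap, and their spread rests on 2 libraries each with few reads. FKBP4 averaged 73.9 ± 5.63 CPM with RAME and 21.7 ± 2.36 CPM with DMSO (SD, n = 2 each), and its log2 fold change was 1.77 ± 0.37 (SE), or 3.40-fold, with an edgeR adjusted p of 0.0145. The call was lost without RAME replicate 1, where the edgeR adjusted p was 0.0539 at a log2 fold change of 1.69.

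STIP1, known as HOP, bridges HSP70 and HSP90 and hands over the client. It had 81 and 97 reads with RAME and 47 and 66 with DMSO, or 58.4 and 56.0 CPM against 19.6 and 25.3 CPM. Both RAME libraries were above both DMSO libraries. STIP1 averaged 57.2 ± 1.67 CPM with RAME and 22.4 ± 4.01 CPM with DMSO (SD, n = 2 each), with an edgeR log2 fold change of 1.35 ± 0.39 (SE, 2.55-fold, adjusted p = 0.0424). This was the least secure of the 5 calls, made in 9 of the 16 other settings, including the crossed pairing chosen after the data were seen. It was lost without DMSO replicate 1 (edgeR adjusted p = 0.132), without RAME replicate 1 (0.192) and without RAME replicate 2 (0.108), at log2 fold changes of 1.18 to 1.38.

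PTGES3, known as p23, holds the closed, ATP-bound state of HSP90 and ranked 21st in mean reads among all genes. It had 9975 and 10466 reads with RAME and 15272 and 16482 with DMSO, or 7191 and 6045 CPM against 6370 and 6312 CPM. The RAME libraries lay on either side of the DMSO libraries. PTGES3 averaged 6618 ± 810 CPM with RAME and 6341 ± 41.1 CPM with DMSO (SD, n = 2 each). The log2 fold change was 0.06 ± 0.24 (SE), with an interval at 95% of −0.46 to 0.59 and an edgeR adjusted p of 0.893. The log2 fold changes of the 16 other settings ran from −0.07 to 0.19, with 0 calls. The interval ends below the estimated log2 fold change of every other tested member. It overlaps the 95% intervals of HSP90AB1 (0.38 to 2.17) and STIP1 (0.49 to 2.20).

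**Figure D3:**
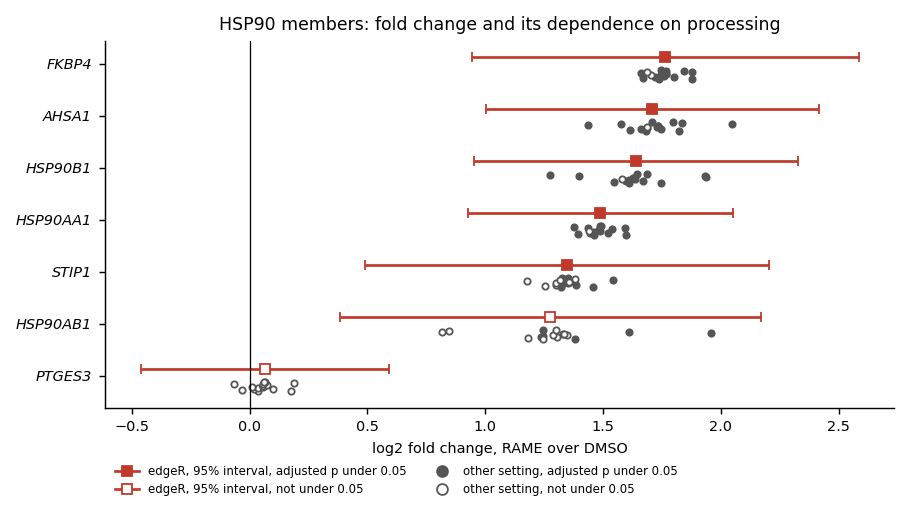
Log2 fold change of RAME over DMSO (horizontal axis) of the 7 tested members, with the edgeR estimate and its 95% interval in red and the 16 other settings as grey points, filled where the adjusted p was under 0.05. AHSA1, HSP90B1 and HSP90AA1 passed in 15 of 16 settings and FKBP4 in 14, STIP1 in 9, HSP90AB1 in 7 and PTGES3 in 0. The 16 include the crossed pairing, chosen after the data were seen, in which every tested member but PTGES3 passed.

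Fewer PTGES3 reads per read of cytosolic HSP90 were counted in both RAME libraries than in either DMSO library. There were 1.99 and 1.34 PTGES3 reads per read of cytosolic HSP90 with RAME and 3.87 and 4.73 with DMSO. The ratio was 0.382 times as large under RAME, a log2 difference of −1.39. It uses the same reads as the fold changes above, so it is no separate result about PTGES3. The exact permutation p was 0.333, the smallest that 2 against 2 libraries allow, and 1 when adjusted over the 6 ratios computed. For the cochaperones that rose, the ratio to cytosolic HSP90 overlapped between the groups. AHSA1 had 14.7 and 9.88 reads per 100 cytosolic HSP90 reads with RAME and 7.16 and 13.5 with DMSO. FKBP4 had 2.15 and 1.55 with RAME and 1.21 and 1.75 with DMSO, and STIP1 had 1.62 and 1.24 with RAME and 1.19 and 1.89 with DMSO. The exact permutation p was 0.667 for AHSA1, 0.667 for FKBP4 and 1 for STIP1. Leaving out PTGES3, the other cochaperones took 0.0643% and 0.0558% of the reads with RAME and 0.0165% and 0.0238% with DMSO.

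**Figure D4:**
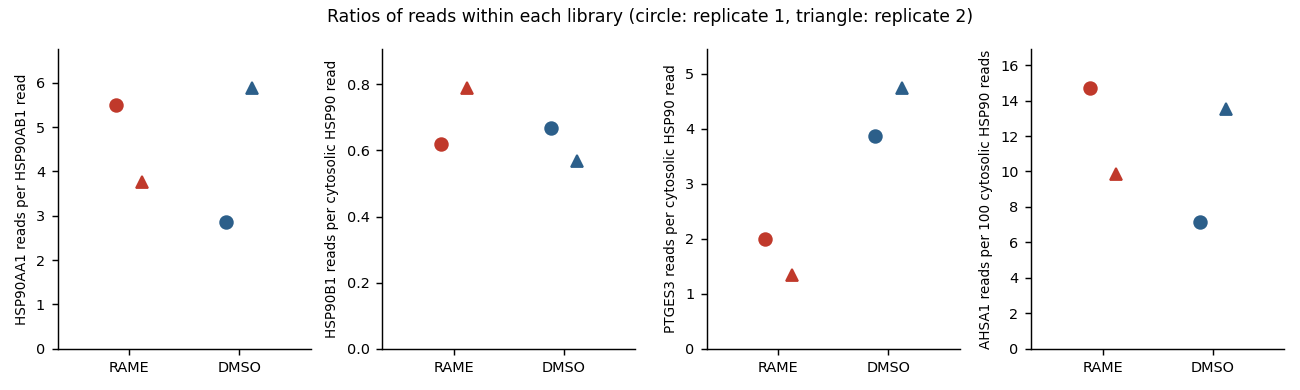
Ratios of reads within each library (vertical axes from 0) for RAME (red, left) and DMSO (blue, right), with circles for replicate 1 and triangles for replicate 2. The groups separate for PTGES3 per cytosolic HSP90 read (1.34 and 1.99 against 3.87 and 4.73) and overlap for the other 3 ratios plotted.

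CDC37, which recruits kinases to HSP90, had 2 and 3 reads with RAME and 3 and 7 with DMSO. Over the groups this was 1.603 CPM with RAME and 1.996 CPM with DMSO, a ratio of 0.803 with a counting interval at 95% of 0.215 to 2.58. HSF1, the activator of the heat shock genes, had 0 and 2 reads with RAME and 1 and 0 with DMSO. Both groups were under the 3 reads that a count of 0 allows, which is 0.962 CPM over the RAME libraries and 0.599 CPM over the DMSO libraries, so no fold is given. Neither gene was measured well enough for a difference to be detectable.

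None of the further HSP90 cochaperones passed the test. Of 37 genes, 34 were listed and 13 tested, and 0 were called by edgeR, against 13.5% of all genes tested. At an unadjusted p under 0.05, 2 were higher and 0 were lower, and the share of all genes at that threshold is not given. DESeq2 called 1, where it called 663 of all 4517 genes. Their median log2 fold change was 0.33, against 0.01 over all genes tested. TSC1, the tuberous sclerosis protein that slows the HSP90 ATPase, had the smallest p among those with a mean of at least 20 reads. It had 137 and 88 reads with RAME and 40 and 95 with DMSO (edgeR log2 fold change 1.49 ± 0.48 SE, adjusted p = 0.0596). TSC1 passed without DMSO replicate 2, at an adjusted p of 0.00415, and without RAME replicate 2, at 0.00689. STUB1, the ubiquitin ligase CHIP, had a log2 fold change of 0.96 (edgeR adjusted p = 0.205), and its reads were nearly those of the neighbouring JMJD8. CDC37L1, a relative of CDC37, had 1.17 (0.259), and its log2 fold change was 0.12 when RAME replicate 1 was left out and 1.80 when RAME replicate 2 was. The mitochondrial import receptor TOMM70A had −0.54 (0.334), with −0.12 without DMSO replicate 1 and −1.09 without RAME replicate 2.

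Tested genes known to be driven by HSF1 were split between a few large rises and many without a call. Of 28 genes, 9 had under 20 reads in all and 17 were tested. Among those 17, 5 rose and 0 fell, where 6.46% of all genes tested rose and 7.08% fell. The median log2 fold change was 0.34, against 0.01 over all genes tested. The 5 were CRYAB and HSPH1, HSPA8, BAG3 and DNAJB1. CRYAB, a small heat shock protein, had 3536 and 4329 reads with RAME and 260 and 277 with DMSO, an edgeR log2 fold change of 4.56 ± 0.30 (SE, adjusted p = 1.99e-05). HSPH1, the HSP110 exchange factor of HSP70, had 896 and 987 reads with RAME and 68 and 117 with DMSO (4.05 ± 0.36 SE). HSPA8, the cytosolic HSP70 that passes clients on to HSP90, had 107 and 193 reads with RAME and 19 and 14 with DMSO (3.82 ± 0.44 SE). These 3 genes had reads in the RAME libraries several times over those in either DMSO library. BAG3, a partner of HSP70, had 107 and 109 reads with RAME and 19 and 15 with DMSO (3.35 ± 0.45 SE). DNAJB1, an HSP40, had 47 and 59 reads with RAME and 14 and 34 with DMSO (edgeR log2 fold change 1.84 ± 0.52 SE, adjusted p = 0.0399). The DNAJB1 call was lost without DMSO replicate 1 (adjusted p = 0.149), without RAME replicate 1 (0.0702) and without RAME replicate 2 (0.0582). HSPH1, CRYAB, HSPA8 and BAG3 passed in all 16 other settings. Without DMSO replicate 2 the list had 5 higher and 3 lower.

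Most tested folding partners of HSP90B1 in the endoplasmic reticulum rose. Of 25 genes, 24 were listed and 15 tested, and 10 rose and 0 fell by edgeR, against 6.46% of all genes tested that rose. The median log2 fold change was 1.56, near the 1.64 of HSP90B1. HSPA5, the chaperone BiP, had 49841 and 46966 reads with RAME and 5331 and 9011 with DMSO, a log2 fold change of 3.48 ± 0.30 (SE). DNAJC3, a cofactor of BiP, rose by 3.27 ± 0.29 (SE) on the log2 scale, and the disulfide isomerases PDIA4 and PDIA3 rose by 3.67 ± 0.39 and 1.76 ± 0.27 (SE). In 13 of the 15, both RAME libraries lay above both DMSO libraries, against 31.1% of all genes. With limma on the authors' normalized log2 values, 4 of the 15 passed, all higher. With no filter, 23 genes of the list were tested and 2 were lower by edgeR, both named after their values were seen. Over all genes that fit tested 11683 and called 306 higher and 481 lower. The 2 lower genes of the list were the prolyl isomerase PPIB and CNPY2. PPIB had 1 and 4 reads with RAME and 71 and 9 with DMSO (edgeR adjusted p = 0.00178). CNPY2 had 1 and 3 reads with RAME and 49 and 11 with DMSO (edgeR adjusted p = 0.0101). In both, most reads were in DMSO replicate 1.

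None of the folding and protease partners of TRAP1 in mitochondria passed the test. Of 19 genes, 11 were tested and 0 were called by edgeR, where 13.5% of all genes tested were called. The median log2 fold change was −0.30, against 0.01 over all genes tested. At an unadjusted p under 0.05, 0 were higher and 2 were lower, and the share of all genes at that threshold is not given. DESeq2 called 0, where it called 663 of all 4517 genes. HSPA9, the mitochondrial HSP70, had 926 and 1407 reads with RAME and 1091 and 1407 with DMSO (edgeR log2 fold change 0.58, adjusted p = 0.187). DNAJC19, a cochaperone of protein import, had −1.57 (0.103), with −0.91 (0.450) without DMSO replicate 1 and −1.04 (0.428) without RAME replicate 1. It passed without DMSO replicate 2, at −2.01 (0.0131), and without RAME replicate 2, at −2.51 (0.0243). CLPX of the ClpXP protease had −0.83 (0.266), and HTRA2, a serine protease whose reads were nearly those of the neighbouring LOXL3, had −1.07 (0.212). Without DMSO replicate 2 there were 3 lower calls in this list and without RAME replicate 2 there were 2.

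**Figure D5:**
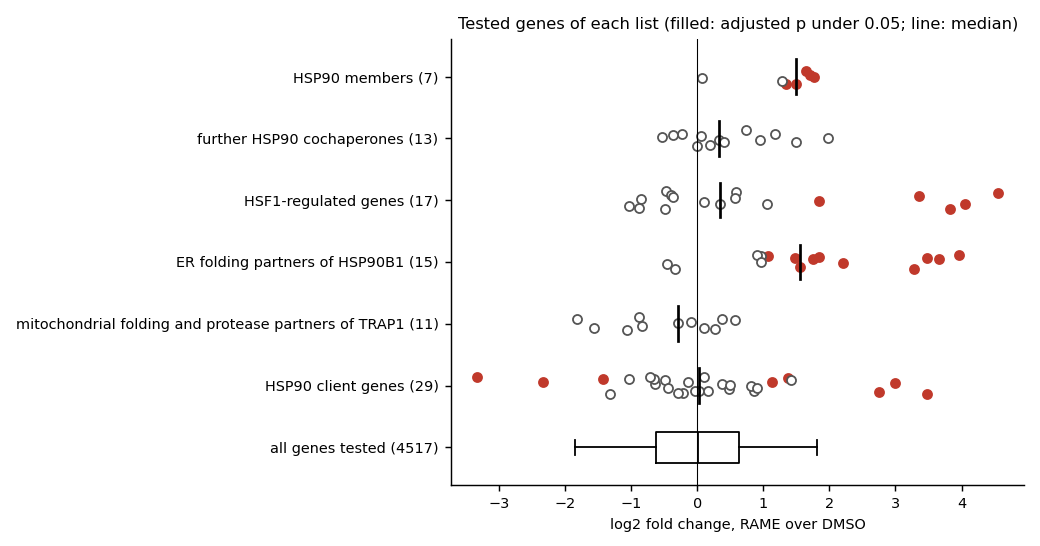
Log2 fold change of RAME over DMSO (horizontal axis) of every tested gene in the members and 5 related lists, filled where the edgeR adjusted p was under 0.05, with a black line at the median of each list. The box shows the quartiles of all 4517 genes tested. The members (median 1.49) and the endoplasmic reticulum partners (1.56) lie to the right of all genes (0.01), and the mitochondrial partners (−0.30) do not.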

How the data were processed

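RNA of cells labelled SKOV-3 was measured in 2 RAME and 2 DMSO libraries made with the QuantSeq 3′ kit. The submitters' processing notes name Bowtie2 and hg19. Not given in the sources used here were the aligner's version, annotation, counting tool and strand setting. Sense and antisense reads thus cannot be separated. Per gene, the authors deposited raw counts, in whole numbers, and normalized values on a log2 scale. The fold and the p-value columns that the authors deposited hold their own comparison and were not used.

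RAME was compared with DMSO in edgeR 4.0.16 under R 4.3.3 (filterByExpr with min.count 10 and min.total.count 15, TMM, robust quasi-likelihood test without the replicate number), with Benjamini-Hochberg adjustment over the 4517 genes tested. Replicates had a biological coefficient of variation of 29.9%, and a standard error is the log2 fold change over the square root of F. Members under the filter were counted over the group, with exact binomial intervals at 95% and a floor of 3 reads. Intervals and floors cover counting error only, because without molecular identifiers several reads can stem from 1 molecule. Ratios within a library were compared by an exact permutation test, two-sided. The members and lists were chosen with earlier results of these data known. Besides the members, the genes named are up to 4 per list with the smallest p among those with a mean of at least 20 reads, all calls of a list with 5 or fewer, and pseudogene rows of a member, and 1 gene that the rule names is not reported here. Genes up to 5 places apart in the table were called nearly equal in reads where every library matched within 10% and 1 further read. Promoters are from RefSeq (8 of 10 members), pseudogene names and transcripts from GENCODE 29, and identities from blastn 2.17.0. The 16 other settings were DESeq2 1.42.0, limma-voom and limma 3.58.1 on the deposited log2 values, other scalings and filters, thinned libraries, pseudogene reads added, each library left out, the replicate number as a block and, added after the data were seen, the crossed pairing. The fit was tested on simulated data.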

Additional observations from a re-analysis of the deposited data

How the results depend on the processing

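Over the 16 other settings all 7 tested members kept a positive log2 fold change except PTGES3, which was never called. The calls of HSP90AA1, HSP90B1 and AHSA1 were lost only in limma on the authors' normalized log2 values, which called 131 genes in place of 612, 0 members in place of 5, 4 endoplasmic reticulum partners in place of 10 and 3 client genes in place of 8. The cause was not tested. For the client genes the calls were 5 with library size only, 5 with a mean of at least 20 reads, 4 by DESeq2 and 3 by limma-voom. The further cochaperones had 1 call with upper quartile scaling, 1 with no filter, 1 by DESeq2 and 2 in libraries thinned to the smallest total, and the mitochondrial partners had 1 with no filter.

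Leaving out each library in turn, where the lone library of a group is assumed to vary like the other group, gave 323 to 857 genes called, the lowest without DMSO replicate 1, and 344 without RAME replicate 1. It gave 4 to 5 members, 0 to 1 further cochaperones, 4 to 8 HSF1-regulated genes, 8 to 11 endoplasmic reticulum partners, 0 to 3 mitochondrial partners and 0 to 6 client genes. The log2 ratio of HSP90AA1 to HSP90AB1 differed between groups by −0.37 to 0.67.

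The replicate numbers did not pair the libraries (correlation of same-numbered deviations −0.34). With the replicate block 437 genes, 4 members and 3 client genes were called, and STIP1 had an edgeR adjusted p of 0.120. With the crossed pairing as a block, chosen after seeing the data, 1787 genes, 6 members, 4 further cochaperones, 12 HSF1-regulated genes, 4 mitochondrial partners and 16 client genes were called.

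Of the genes called, 47.7% were higher with TMM, 59.3% with upper quartile scaling, which shifted the median of all genes to 0.12, and 39.6% with library size only. Apart from scaling, it was 38.9% with no filter and 70.2% in limma on the authors' values. TRAP1, CDC37 and HSF1 had too few reads for a test, and the cause was not tested.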

Other observations

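Genes whose proteins are known clients of HSP90 moved in both directions. Of 64, 63 were listed and 29 tested, and edgeR called 5 higher and 3 lower, where 6.46% of all genes tested were higher and 7.08% lower. The median log2 fold change was 0.02, against 0.01 over all genes tested. With the filter set to a mean of at least 20 reads, edgeR tested 23 of the list and called 2 higher and 3 lower. IGF1R, the receptor of insulin-like growth factor, had 96 and 104 reads with RAME and 59 and 66 with DMSO (log2 fold change 1.37 ± 0.37 SE, edgeR adjusted p = 0.0352). PDPK1, the kinase that activates AKT, had 7 and 33 reads with RAME and 512 and 97 with DMSO (−3.33 ± 0.84 SE, edgeR adjusted p = 0.0326). The oestrogen receptor gene ESR1 had 3 and 11 reads with RAME and 62 and 50 with DMSO (−2.34 ± 0.63 SE, edgeR adjusted p = 0.0323). None of these 29 genes was called without DMSO replicate 1, where the edgeR log2 fold change of PDPK1 was −1.58 (adjusted p = 0.101). Without RAME replicate 1 there was 1 call, PDPK1, and IGF1R and ESR1 had edgeR adjusted p of 0.205 and 0.163. Without RAME replicate 2 the edgeR adjusted p of IGF1R was 0.0697.

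Of 7 genes for heat shock factors and their binding proteins, 5 had under 20 reads in all. HSF2, a heat shock factor related to HSF1, had 1 and 8 reads with RAME and 63 and 31 with DMSO. Both RAME libraries lay below both DMSO libraries, and the edgeR log2 fold change was −2.74 ± 0.78 (SE, adjusted p = 0.0417). That call was lost without DMSO replicate 1 (adjusted p = 0.137) and without RAME replicate 1 (0.130). HSBP1, a binding protein of HSF1, had 196 and 83 reads with RAME and 143 and 199 with DMSO, with an edgeR log2 fold change of 0.47 (adjusted p = 0.523). Its direction turned when RAME replicate 1 was left out (−0.50), and the value was 1.06 when RAME replicate 2 was.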
